A study of Mus musculus with 32 samples.

Results

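The genes described here encode proteins of enzyme families that add or remove methyl and acetyl groups on histones. These families are lysine methyltransferases, arginine methyltransferases, lysine demethylases, lysine acetyltransferases, zinc-dependent deacetylases and sirtuins. Members were chosen by symbol alone, as protein-coding genes of GENCODE mouse release M21 whose symbol starts with Kdm, Kmt, Setd, Setdb, Prmt, Hdac, Kat or Sirt followed by a digit. Of 70 such genes, 68 were among the 20368 genes of the juvenile gene table, which holds the genes that reached 3 TPM in at least 1 mouse. TPM gives a gene's transcripts, corrected for length, as a share of all transcripts of the sample. Prmt8, with a highest value of 0.32 TPM, was below that level, and Prmt1 was listed under an older identifier and was not counted. By role there were 8 methyltransferases assigned to lysine 4 of histone H3 (H3K4), 10 other SET-domain methyltransferases, 6 arginine methyltransferases, 18 lysine demethylases, 8 lysine acetyltransferases, 11 zinc-dependent deacetylases and 7 sirtuins.

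The study sequenced polyadenylated RNA from germ cells of male C57BL/6J mice during the first wave of spermatogenesis. The cells came from digested seminiferous tubules of individual mice, with 3 mice at 8 days post-partum (dpp) and 5 mice at each of 10, 12, 14, 16 and 18 dpp, 28 mice in all. The adult group was 4 samples of pachytene and diplotene spermatocytes from C57BL/6J males aged 9 weeks, each pooled from 6 mice and enriched by sedimentation at unit gravity, so that some other cells remained. The adult values come from a separate table and stand beside the juvenile values without a test. No read counts were used here, so the depth behind each TPM value is unknown.

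Histone methylation and acetylation mark chromatin as active or silent, and the balance between the enzymes that write and erase them changes as germ cells leave mitosis and enter meiosis. In spermatocytes, methylation of H3K4 marks the sites of meiotic recombination, demethylation of H3K9 precedes the use of genes for sperm packaging, and the X and Y chromosomes are silenced during pachytene. Several members act on proteins outside chromatin, among them actin, tubulin and mitochondrial enzymes, and not every member is known for a histone target.

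Most members changed in level between 8 and 18 dpp, and more of them fell than rose. In a limma fit of log2(TPM + 1) over the 28 mice, with p-values adjusted over all 20368 genes, 60 of the 68 members differed among the 6 ages at an adjusted p under 0.05, beside 77.6% of all genes tested. From 8 to 18 dpp 18 members rose, where 31.8% of all genes rose, and 40 members fell, where 36.3% of all genes fell. The other 10 passed in neither direction. The values of the 3 mice at 8 dpp and the 5 at 18 dpp did not overlap for 14 members that were higher and 38 that were lower at 18 dpp. The same held for 29.0% of all genes in the higher and 32.0% in the lower direction. The median log2 fold change was -0.39 over the members and -0.09 over all genes. From these RNA values of mixed cells alone, fewer cells of a type and less RNA per cell cannot be told apart.

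The summed level of the members changed little, from 3698 ± 103 TPM at 8 dpp (mean ± SD, n = 3) to 3569.8 ± 81.9 TPM at 18 dpp (n = 5), while the roles shifted against each other. Sirtuins went from 194 ± 3.59 to 324 ± 18.3 TPM and acetyltransferases from 391 ± 1.53 to 493 ± 61.0 TPM. H3K4 methyltransferases went from 347 ± 17.9 to 231 ± 15.3 TPM and zinc-dependent deacetylases from 876 ± 25.6 to 702 ± 45.9 TPM. Demethylases summed to 958 TPM at both ages. These sums were not tested and are on the TPM scale alone.

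**Figure D1:**
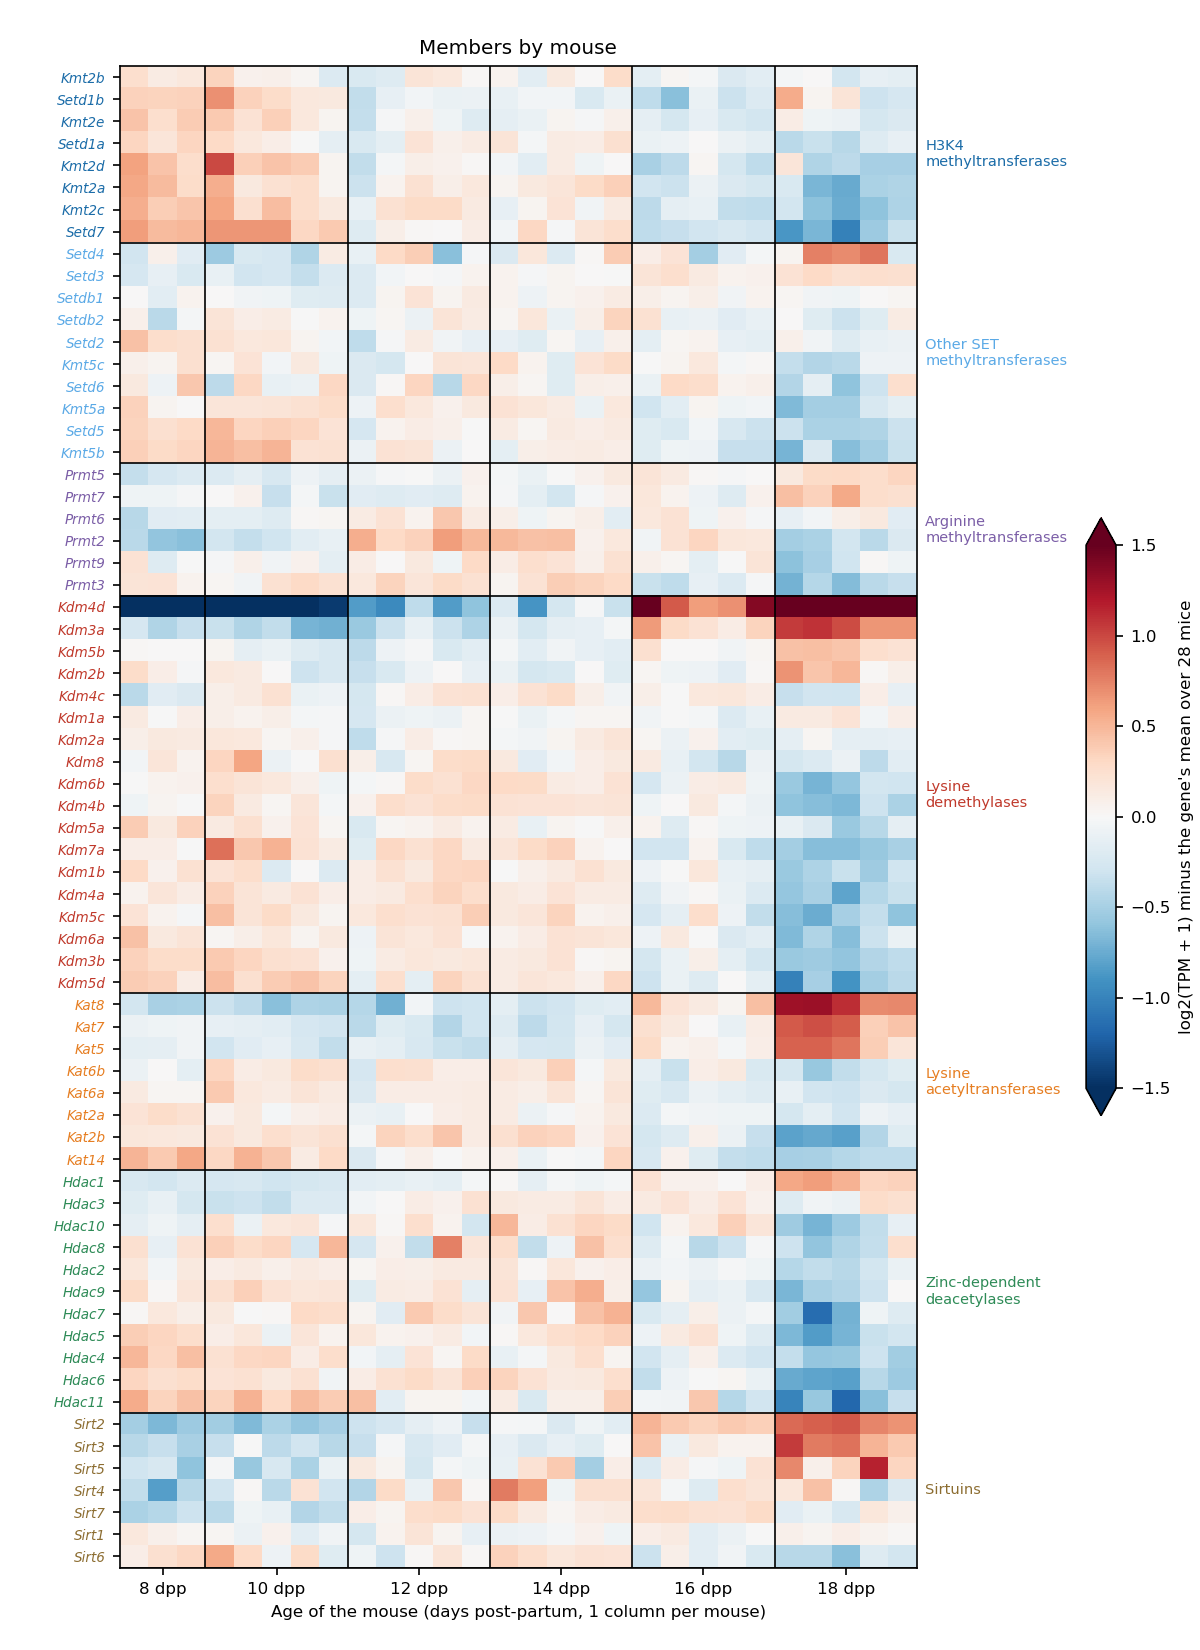
Each row is a member, grouped by role, and each column a mouse, ordered by age in days post-partum. Colour gives log2(TPM + 1) minus the gene's mean over the 28 mice, with red above and blue below that mean and colours ending at 1.5. The columns of 18 dpp stand out, with Kdm4d, Kdm3a, Kat8, Kat7, Kat5, Hdac1, Sirt2 and Sirt3 in red and most other members in blue, and mice 1 to 3 of that age are more strongly coloured than mice 4 and 5.

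The 5 mice of 18 dpp fell into 2 sets. Of the 18 members that rose, 11 had every one of mice 1 to 3 above mice 4 and 5 and 2 had them below, where 63.6% and 8.94% of all genes that rose did. Of the 40 that fell, 22 had every one of mice 1 to 3 below mice 4 and 5 and 2 had them above, beside 56.6% and 3.55% of all genes that fell. With mice 4 and 5 left out together, an alternative chosen after seeing the data, 17 members rose and 40 fell. There Hdac3, Prmt6 and Kdm2a lost their calls, and Kdm2b and Hdac8 gained one. The scaling moved the counts as well. Dividing each mouse by a median-of-ratios size factor shifted the median log2 fold change of all genes from -0.09 to 0.05, a shift of 0.14, and turned the share of rises among all calls from 46.7% to 55.9%. The size factors were 0.99 to 1.02 at 8 dpp and 0.84 to 0.97 at 18 dpp. The sums given above are without this scaling, and under it those of 18 dpp would be higher relative to 8 dpp. Under that scaling 23 members rose and 33 fell, and their median was -0.22. Prmt2, Kdm1a, Kdm2b, Kdm4c and Setdb1 were called as rises there and not without it, and Kmt2b, Setd6, Prmt9, Kdm2a, Kat6a, Kat6b and Hdac10 lost their calls as falls. Among the weaker calls, those of Setd4, Setd6, Sirt4, Kat6b, Kmt2b, Kdm2a, Prmt6, Prmt9, Hdac3 and Hdac10 each ended in at least 1 fit that left out a single mouse of 8 or 18 dpp. The direction with more falls than rises therefore held in both scalings over the members, whereas it turned over all genes.

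Marker genes of the cell types in these tubules moved over the same ages. All 7 spermatogonium markers fell from 8 to 18 dpp. Their summed level was 1226, 1089 and 1210 TPM in the 3 mice at 8 dpp and 486, 499, 505, 657 and 688 TPM in the 5 at 18 dpp, with Uchl1 the most abundant. Of the 8 Sertoli cell markers, 7 fell and 1 rose, and the sums were 2532, 2871 and 2521 TPM in the younger set against 1044, 1006, 1048, 1508 and 1381 TPM in the older, led by Inha. All 7 pachytene and diplotene markers rose. Their sums were 81.4, 73.2 and 87.9 TPM in the mice of 8 dpp against 5170.4, 5196, 5008, 2922 and 2778 TPM in those of 18 dpp, led by Ldhc. Mice 4 and 5 of 18 dpp were lowest in pachytene markers and highest in spermatogonium and Sertoli markers of that age.

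Markers of other cell types were found as well, although by the labels the digested tubules were washed to clear away cells from between them. Of the leptotene and zygotene markers 4 of 5 rose, from a mean sum of 251 to 766 TPM with Sycp3 the most abundant, and of the pan germ cell markers 2 of 3 rose, from 693 to 1641 TPM with Tex101 the most abundant. Peritubular markers summed to 1092, 1160 and 1051 TPM at 8 dpp and 586, 524, 554, 1006 and 1034 TPM at 18 dpp, led by Acta2, and 1 of 5 fell. Leydig cell markers, led by Insl3, passed as rises in 3 of 6 and summed to 191, 198 and 175 TPM at 8 dpp and 184, 186, 169, 472 and 325 TPM at 18 dpp, so that only mice 4 and 5 were above every mouse of 8 dpp. Macrophage markers rose in 4 of 5, led by Lyz2, from 26.4, 26.8 and 33.3 TPM to 42.5, 43.7, 39.7, 65.8 and 78.6 TPM. Of 4 endothelial markers 1 rose and 1 fell, led by Cdh5, with sums of 56.6, 54.1 and 50.2 TPM at 8 dpp and 31.8, 37.9, 35.3, 55.0 and 65.2 TPM at 18 dpp. Mice 4 and 5 of 18 dpp were the highest of their age in the peritubular, Leydig, macrophage and endothelial sums alike. By limma none of the 5 red blood cell markers passed, with mean sums of 464 and 308 TPM and Hbb-bs the most abundant. Of 6 spermatid markers only Spaca1 was in the gene table, where it rose, and Prm1, Prm2, Tnp1, Tnp2 and Acrv1 stayed at or under 2.43 TPM in every juvenile mouse. No marker of any list was at 0 in every mouse. The part of these cell types in the changes of the histone-modifying enzymes was not tested.

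Lysine demethylases held the gene with the largest change of any member, although most of them fell. Of 18, 3 rose, 11 fell and 4 passed in neither direction, with a median log2 fold change of -0.52, and with median-of-ratios scaling 6 rose and 10 fell. Kdm4d (ENSMUSG00000053914, chromosome 9) removes methyl groups from H3K9 and is expressed mainly in testis. Its TPM values were 1.08, 0.77 and 1.07 in the 3 mice at 8 dpp and 70.3, 70.2, 59.4, 26.2 and 22.9 in the 5 at 18 dpp. No value of 18 dpp came near those of 8 dpp, and mice 1 to 3 held more than mice 4 and 5. The log2 fold change was 4.54 (SE 0.299, adjusted p = 4.10e-13), and 5.10 without mice 4 and 5. Means for 10, 12, 14 and 16 dpp were 1.05 ± 0.349, 3.07 ± 0.672, 4.34 ± 1.09 and 13.4 ± 4.62 TPM (n = 5 each).

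Kdm3a (ENSMUSG00000053470, chromosome 6) also demethylates H3K9 and is required for the packaging of sperm chromatin. It was at 58.5, 51.0 and 54.9 TPM at 8 dpp and at 145, 149.6, 139, 111 and 111 TPM at 18 dpp, without overlap and again higher in mice 1 to 3. The log2 fold change was 1.23 (SE 0.118, adjusted p = 5.81e-10). Kdm5b, an H3K4 demethylase, was abundant at every age and rose from 155 ± 0.970 TPM at 8 dpp (n = 3) to 198 ± 14.8 TPM at 18 dpp (n = 5), a log2 fold change of 0.35 (SE 0.0771, adjusted p = 2.91e-04). Of the 3 that rose it changed least.

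Promoters are shown for the members with the largest rises, from Kdm4d down to Sirt3, and for Setd7, which fell most. RefSeq windows of 300 bases, from 250 before to 50 after a transcription start on build GRCm38.p6, were found for 56 of the 68 members, 76 windows in all. Capitals mark matches on either strand to 6 motifs. The cAMP response element was searched as TGACGTCA and the MYB core as TAACNG. The E-box was searched as CACGTG, the GC box as GGGCGG, the CCAAT box by its 5 letters and the ETS core as TTCCGG. A match is a description and not a site. The Kdm4d window (chr9:14500433-14500732, minus strand) held 4 ETS cores, 2 CCAAT boxes and 1 GC box.
Kdm4d: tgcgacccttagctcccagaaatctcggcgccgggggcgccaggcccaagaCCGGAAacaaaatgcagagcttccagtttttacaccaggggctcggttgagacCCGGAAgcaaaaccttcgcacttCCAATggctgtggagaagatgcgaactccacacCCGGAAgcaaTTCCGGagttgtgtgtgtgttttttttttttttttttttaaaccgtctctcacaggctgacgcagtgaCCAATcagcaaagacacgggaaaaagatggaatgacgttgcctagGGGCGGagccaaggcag
The Kdm3a window with the most upstream start (chr6:71632868-71633167, minus strand) held 3 GC boxes and 2 CCAAT boxes.
Kdm3a: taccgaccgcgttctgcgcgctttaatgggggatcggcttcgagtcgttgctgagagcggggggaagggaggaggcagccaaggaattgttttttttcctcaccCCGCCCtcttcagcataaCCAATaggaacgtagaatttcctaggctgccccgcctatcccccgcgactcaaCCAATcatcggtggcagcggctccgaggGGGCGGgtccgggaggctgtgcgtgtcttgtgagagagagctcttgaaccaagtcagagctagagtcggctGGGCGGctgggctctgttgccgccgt

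The ETS core of the Kdm4d window was present in 14.9% of all 32851 windows, in 28.9% of the 76 member windows, in 40.9% of the 22 windows of members that rose and in 17.1% of the 41 windows of members that fell. The CCAAT box was in 37.4% of all windows, 43.4% of member windows, 59.1% of those of risers and 29.3% of those of fallers. The GC box was in 35.7% of all, 60.5% of members, 63.6% of risers and 58.5% of fallers, so that it differed little between the directions. The MYB core was in 23.3%, 17.1%, 31.8% and 4.88% in the same order. The E-box was in 7.15%, 7.89%, 4.55% and 7.32%, and the cAMP response element in 1.79%, 1.32%, 0% and 2.44%. These shares were not tested, and windows of a gene with several starts share bases.

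Among the demethylases that fell, Kdm5d on the Y chromosome changed most, with 12.0, 11.6 and 9.77 TPM at 8 dpp and 3.94, 6.03, 4.35, 5.99 and 6.5 TPM at 18 dpp, a log2 fold change of -0.95 (SE 0.132, adjusted p = 4.54e-07). Its X-linked counterpart Kdm5c, likewise an H3K4 demethylase, had 51.0, 45.9 and 43.7 TPM at 8 dpp and 28.1, 26.0, 30.8, 34.1 and 28.7 TPM at 18 dpp, and a log2 fold change of -0.65 (SE 0.107, adjusted p = 5.65e-06). The H3K27 demethylases Kdm6a and Kdm6b had log2 fold changes of -0.69 (SE 0.109, adjusted p = 2.79e-06) and -0.52 (SE 0.101, adjusted p = 5.94e-05). The groups did not overlap for any of these 4 genes. The other 7 that fell were Kdm1b, Kdm2a, Kdm3b, Kdm4a, Kdm4b, Kdm5a and Kdm7a, with log2 fold changes from -0.80 for Kdm3b to -0.23 for Kdm2a. Kdm1a, the flavin-dependent H3K4 demethylase also called LSD1, was at 130.4 ± 6.49 TPM at 8 dpp and 133 ± 8.27 TPM at 18 dpp and was not called (adjusted p = 0.721). Kdm2b, Kdm4c and Kdm8 were not called either, with adjusted p of 0.114, 0.571 and 0.0835. With median-of-ratios scaling Kdm1a, Kdm2b and Kdm4c were called as rises, with log2 fold changes of 0.20, 0.40 and 0.24, and Kdm2a was not called. Without 18 dpp mice 4 and 5 Kdm2b was at 0.41 and called, as it was without mouse 4 (0.30) or mouse 5 (0.29) alone. Kdm2a was not called without 8 dpp mouse 2 (-0.21) or mouse 3 (-0.22).

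Lysine acetyltransferases divided into 3 that rose and 5 that fell, and each of the 8 was called. The risers were the MYST-family enzymes Kat8, Kat7 and Kat5. Kat8 (ENSMUSG00000030801, chromosome 7), which acetylates H4K16, was at 27.4, 23.5 and 23.6 TPM at 8 dpp and at 81.6, 82.5, 72.8, 54.9 and 55.5 TPM at 18 dpp. The groups did not overlap, mice 4 and 5 were again the lower ones at 18 dpp, and the log2 fold change was 1.43 (SE 0.136, adjusted p = 5.63e-10). Overlapping genes are noted here for some members only. Kat8 overlaps Prss8 on the opposite strand, and since no strand-specific protocol was named, reads of overlapping genes may be assigned to either. Its upstream window (chr7:127912267-127912566, plus strand) held 2 ETS cores and 1 each of the MYB core, GC box and CCAAT box.
Kat8: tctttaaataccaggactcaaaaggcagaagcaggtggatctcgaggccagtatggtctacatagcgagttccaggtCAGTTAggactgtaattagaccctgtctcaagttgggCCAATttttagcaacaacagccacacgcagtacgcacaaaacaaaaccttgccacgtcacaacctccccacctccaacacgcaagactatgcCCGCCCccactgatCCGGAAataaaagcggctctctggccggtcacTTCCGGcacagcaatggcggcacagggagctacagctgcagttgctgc

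Kat7, which acetylates histone H3 at replication origins and elsewhere, was the most abundant acetyltransferase. It was at 118, 120.3 and 121 TPM at 8 dpp and at 239, 247, 236, 161 and 169 TPM at 18 dpp, so every mouse of 18 dpp was above every mouse of 8 dpp. The log2 fold change was 0.78 (SE 0.111, adjusted p = 5.53e-07). Kat5, the catalytic subunit of the TIP60 complex, was at 38.6, 38.8 and 41.4 TPM at 8 dpp and at 80.2, 80.2, 75.5, 55.5 and 48.9 TPM at 18 dpp, without overlap. Its log2 fold change was 0.74 (SE 0.118, adjusted p = 3.64e-06), and it overlaps Rnaseh2c on the opposite strand. Without 18 dpp mice 4 and 5 the log2 fold changes of Kat8, Kat7 and Kat5 were 1.63, 1.00 and 0.97.

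Among the acetyltransferases that fell, Kat14, a subunit of the ATAC complex, changed most. It was at 39.4, 36.2 and 41.5 TPM at 8 dpp and at 19.2, 19.4, 20.1, 20.8 and 20.8 TPM at 18 dpp, with little spread among the later mice, and its log2 fold change was -0.92 (SE 0.101, adjusted p = 6.59e-09). Kat14 overlaps Pet117 on the same strand. The paralogues Kat2a and Kat2b, which acetylate H3K9 within coactivator complexes, had log2 fold changes of -0.42 (SE 0.0669, adjusted p = 3.66e-06) and -0.76 (SE 0.119, adjusted p = 2.80e-06). Kat6a and Kat6b, also of the MYST family, fell by 0.30 and 0.26 on the log2 scale. The call of Kat6b ended without any single mouse of 8 dpp (-0.27, -0.22 and -0.29), without 18 dpp mouse 2 (-0.20) or mouse 3 (-0.25), and without some mice of 10, 12 and 14 dpp. With median-of-ratios scaling 3 acetyltransferases rose and 3 fell.

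Sirtuins, the NAD-dependent deacylases, rose in 5 of 7 members, fell in 1 and were not called in 1, with a median log2 fold change of 0.53. The count was the same under median-of-ratios scaling. Sirt2 (ENSMUSG00000015149, chromosome 7), a largely cytoplasmic deacetylase of tubulin that also acts on H4K16, had the smallest adjusted p of any member for 18 against 8 dpp. It was at 53.8, 47.9 and 52.5 TPM at 8 dpp and at 139, 144, 148, 129 and 124 TPM at 18 dpp, far apart and with little spread within each age. Its log2 fold change from 8 to 18 dpp was 1.40 (SE 0.0706, adjusted p = 2.73e-15). Sirt2 overlaps Nfkbib on the opposite strand. Its window (chr7:28766502-28766801, plus strand) held 2 CCAAT boxes, 1 GC box and 1 MYB core.
Sirt2: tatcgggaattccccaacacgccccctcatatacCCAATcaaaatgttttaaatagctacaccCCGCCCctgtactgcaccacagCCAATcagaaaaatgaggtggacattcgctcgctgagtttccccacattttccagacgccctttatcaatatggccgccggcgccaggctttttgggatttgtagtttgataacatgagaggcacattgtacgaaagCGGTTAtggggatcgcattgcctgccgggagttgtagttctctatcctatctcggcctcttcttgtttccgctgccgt

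The mitochondrial sirtuins Sirt3, Sirt4 and Sirt5 were each called as rises, with different courses. Sirt3 (ENSMUSG00000025486, chromosome 7), the main mitochondrial deacetylase, was at 30.8, 32.2 and 29.2 TPM at 8 dpp and at 86.2, 71.4, 73.2, 59.3 and 54.4 TPM at 18 dpp, without overlap. Its log2 fold change was 1.12 (SE 0.120, adjusted p = 4.60e-09). Sirt5, which removes succinyl and malonyl groups, was low in all mice, at 2.93, 3.10 and 2.18 TPM at 8 dpp and 6.94, 4.12, 5.10, 9.75 and 5.05 TPM at 18 dpp. The log2 fold change was 0.90 (SE 0.202, adjusted p = 3.03e-04), and mouse 4 of 18 dpp was highest. Sirt4 had a log2 fold change of 0.53 (adjusted p = 0.0258) with overlapping groups, and the call ended without 8 dpp mouse 2 (0.38), 18 dpp mouse 1 (0.48) or 18 dpp mouse 2 (0.41). Its mean was highest at 14 dpp, 14.9 ± 3.68 TPM, against 7.44 ± 1.39 TPM at 8 dpp and 11.3 ± 2.95 TPM at 18 dpp, whereas the means of Sirt3 and Sirt5 were highest at 18 dpp. Mouse 4 of 18 dpp was the lowest of its age in Sirt4, at 7.78 TPM.

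The nuclear sirtuins did not move as a set. Sirt7, found in the nucleolus, rose from 29.5 ± 1.74 TPM at 8 dpp to a highest mean of 47.0 ± 1.00 TPM at 16 dpp and was at 38.2 ± 4.69 TPM at 18 dpp, with a log2 fold change from 8 to 18 dpp of 0.36 (SE 0.0923, adjusted p = 0.0013). Sirt6, an H3K9 deacetylase, fell from 22.7 ± 1.73 to 14.7 ± 1.75 TPM, a log2 fold change of -0.61 (SE 0.133, adjusted p = 2.40e-04) without overlap. Sirt1 was at 49.3 ± 2.27 and 48.2 ± 1.09 TPM and was not called (adjusted p = 0.742). It was the member with the highest F-test adjusted p among the ages, 0.508.

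**Figure D2:**
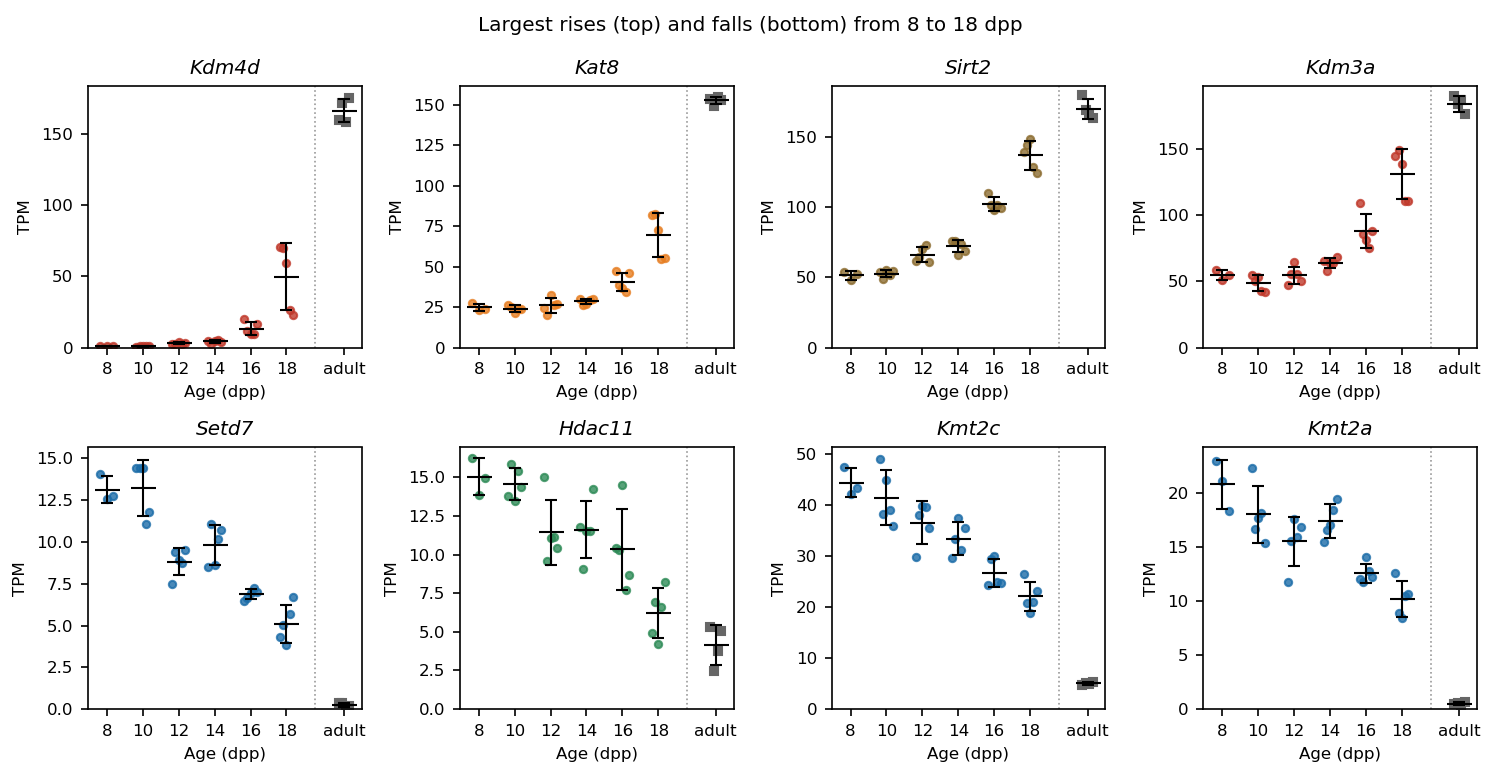
TPM of the 4 members with the largest rise and the 4 with the largest fall from 8 to 18 dpp, by age in days post-partum. Circles are juvenile mice, squares the 4 adult samples, bars the mean and SD, and the dotted line separates the adult table. Kdm4d, Kat8, Sirt2 and Kdm3a climb mainly from 14 dpp onward, whereas Setd7, Kmt2c and Kmt2a have lower means at 16 and 18 dpp than at 8 and 10 dpp and are lowest in the adult samples.

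Zinc-dependent deacetylases fell in 8 of 11 members, with 2 rises and 1 not called, and a median log2 fold change of -0.55. With median-of-ratios scaling 2 rose and 7 fell. Hdac6 (ENSMUSG00000031161, chromosome X), a cytoplasmic deacetylase of tubulin, had the highest mean of any member over the juvenile mice, 276 TPM. It was at 336, 317 and 324 TPM at 8 dpp and at 159, 154, 152, 200.1 and 184 TPM at 18 dpp, so all 5 later mice were below all 3 earlier ones. Hdac6 had a log2 fold change of -0.94 (SE 0.0889, adjusted p = 4.33e-10). Hdac11, the only class IV enzyme, fell most, from 16.2, 13.9 and 15.0 TPM to 4.91, 6.94, 4.22, 6.64 and 8.24 TPM, a log2 fold change of -1.18 (SE 0.172, adjusted p = 8.66e-07).

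The class IIa enzymes, which shuttle between nucleus and cytoplasm, all fell. Hdac4 was at 30.7, 26.8 and 29.5 TPM at 8 dpp and at 16.4, 13.9, 14.1, 17 and 14.6 TPM at 18 dpp, with a log2 fold change of -0.89 (SE 0.102, adjusted p = 1.50e-08). Hdac5 was at 85.9, 83.0 and 79.3 TPM at 8 dpp and at 40.9, 36.6, 40.2, 52.3 and 54.3 TPM at 18 dpp, with a log2 fold change of -0.88 (SE 0.107, adjusted p = 3.93e-08). Neither gene overlapped between the ages. Hdac7 and Hdac9 had log2 fold changes of -0.61 and -0.55, and Hdac9 was scarce, with a mean of 2.00 TPM over the juvenile mice. Hdac10 fell by 0.34 with overlapping groups and was not called with median-of-ratios scaling, without any single mouse of 8 dpp (-0.35, -0.32 and -0.36) or without 18 dpp mouse 1, 2 or 3 (-0.32, -0.28 and -0.32). Hdac8, a class I enzyme on the X chromosome that deacetylates cohesin, was at 3.74, 2.68 and 3.65 TPM at 8 dpp and 2.24, 1.66, 1.92, 2.12 and 3.77 TPM at 18 dpp and was not called (log2 fold change -0.40, adjusted p = 0.116). Mouse 5 of 18 dpp was above all others of both ages, and without it the log2 fold change was -0.54 and passed.

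The class I paralogues Hdac1 and Hdac2, catalytic subunits of the Sin3, NuRD and CoREST complexes, moved in opposite directions. Hdac1 was at 117, 114 and 119.9 TPM at 8 dpp and at 207, 214, 199, 173 and 176 TPM at 18 dpp, with a log2 fold change of 0.72 (SE 0.0605, adjusted p = 5.05e-11). Hdac2 was at 183, 159 and 179.7 TPM at 8 dpp and at 121, 126, 121, 135 and 152 TPM at 18 dpp, with a log2 fold change of -0.41 (SE 0.0614, adjusted p = 1.40e-06). Neither overlapped between these ages, and both calls held with median-of-ratios scaling, at 0.89 and -0.23. The ratio of Hdac1 to Hdac2 was 0.638, 0.717 and 0.668 in the 3 mice at 8 dpp and 1.72, 1.70, 1.64, 1.28 and 1.16 in the 5 at 18 dpp. In adult spermatocytes the mean ratio was 6.36 ± 0.883 (n = 4). Hdac3, a further class I enzyme, was at 104, 109 and 98.7 TPM at 8 dpp and at 103, 114, 111, 143 and 140 TPM at 18 dpp, with overlap. The fit called a rise, with a log2 fold change of 0.22 (SE 0.0810, adjusted p = 0.0176), which rested on mice 4 and 5 of 18 dpp. Without both it was 0.08 and not called (adjusted p = 0.293), nor was it called without either of them alone or without 8 dpp mouse 3.

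**Figure D3:**
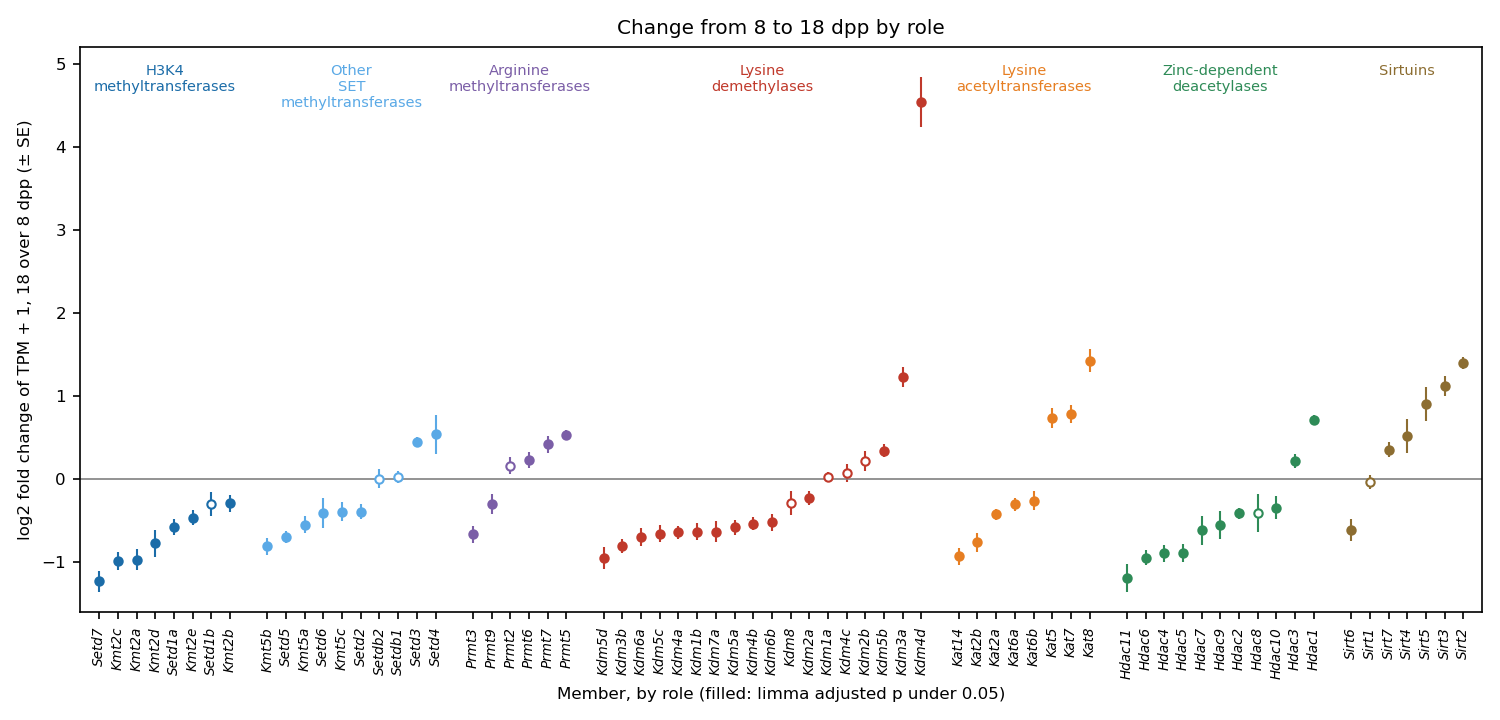
Log2 fold change of TPM + 1 from 8 to 18 dpp for each of the 68 members, ordered within role, with bars for the standard error of the limma fit. Filled points passed an adjusted p under 0.05 and open points did not. Sirtuins lie mostly above 0 and H3K4 methyltransferases below 0, and Kdm4d lies apart at 4.54.

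H3K4 methyltransferases showed no rise from 8 to 18 dpp: by limma 0 of 8 rose, 7 fell, and 7 of 8 had an unadjusted p under 0.05. Their median log2 fold change was -0.67, and with median-of-ratios scaling 6 fell and none rose. From 16 to 18 dpp alone 1 of 8 rose and 4 fell, where 23.4% of all genes rose and 30.6% fell. With median-of-ratios scaling that step had 2 rises and 1 fall among them. Setd7 (ENSMUSG00000037111, chromosome 3), a monomethyltransferase of H3K4 and of many other proteins, fell most of all members. It was at 14.0, 12.6 and 12.7 TPM at 8 dpp and at 4.31, 5.04, 3.82, 5.69 and 6.71 TPM at 18 dpp, without overlap, and its log2 fold change was -1.23 (SE 0.127, adjusted p = 2.54e-09). Its window (chr3:51560774-51561073, minus strand), shown as that of the strongest fall, held none of the 6 motifs and is therefore all in lower case.
Setd7: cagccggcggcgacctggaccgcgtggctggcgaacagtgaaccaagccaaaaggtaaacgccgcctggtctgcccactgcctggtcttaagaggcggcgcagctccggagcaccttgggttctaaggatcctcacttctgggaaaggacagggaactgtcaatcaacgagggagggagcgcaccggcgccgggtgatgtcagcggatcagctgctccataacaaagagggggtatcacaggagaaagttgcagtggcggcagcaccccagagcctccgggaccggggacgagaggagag

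Kmt2a and Kmt2c, SET-domain enzymes of the mixed lineage leukaemia family, followed. Kmt2a was at 22.9, 21.0 and 18.3 TPM at 8 dpp and at 12.6, 8.86, 8.42, 10.5 and 10.7 TPM at 18 dpp, a log2 fold change of -0.96 (SE 0.126, adjusted p = 1.51e-07). Kmt2c was at 47.6, 42.1 and 43.4 TPM at 8 dpp and at 26.6, 20.8, 18.9, 21.0 and 23.1 TPM at 18 dpp, a log2 fold change of -0.98 (SE 0.113, adjusted p = 1.59e-08). All mice of 18 dpp were below all mice of 8 dpp for both genes. Kmt2d, which with Kmt2c methylates H3K4 at enhancers, had a log2 fold change of -0.77 (SE 0.163, adjusted p = 1.58e-04), with mouse 1 of 18 dpp at 24.6 TPM above its group. Kmt2b, Kmt2e and Setd1a had log2 fold changes of -0.29, -0.46 and -0.57, and Kmt2b was not called without 8 dpp mouse 1 (-0.25). Setd1b was not called (adjusted p = 0.0776), with 18.6 ± 0.105 TPM at 8 dpp and 15.3 ± 4.14 TPM at 18 dpp, and it was called as a fall without 18 dpp mouse 1 (log2 fold change -0.42). Its mean was lowest at 16 dpp, 11.4 ± 1.68 TPM.

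The other SET-domain methyltransferases fell in 6 of 10 members, rose in 2 and were not called in 2, and with median-of-ratios scaling 5 fell and 3 rose. The H4K20 methyltransferases fell together. Kmt5b, which adds the later methyl groups, had a log2 fold change of -0.81 (SE 0.104, adjusted p = 1.38e-07), its paralogue Kmt5c of -0.39 (SE 0.114, adjusted p = 0.00372), and Kmt5a, the monomethylase, of -0.55 (SE 0.10, adjusted p = 2.63e-05). Setd2, the H3K36 trimethylase, fell from 87.0 ± 7.07 to 66.2 ± 4.59 TPM, Setd5 fell by 0.70 and Setd6 by 0.40 on the log2 scale, the last with an adjusted p of 0.0499. The call of Setd6 ended without 8 dpp mouse 1 or 3 (-0.41 and -0.28) and without 18 dpp mouse 1, 3 or 4 (-0.36, -0.31 and -0.39). That call also ended without some mice of 10 and 12 dpp and without any single mouse of 14 or 16 dpp. Setd3, which methylates a histidine of actin, rose from 127 ± 5.68 to 174 ± 4.40 TPM, a log2 fold change of 0.45 (SE 0.0582, adjusted p = 1.43e-07) without overlap. Setd4 rose from 5.39 to 8.63 TPM with overlap (adjusted p = 0.0426), and was not called without 8 dpp mouse 1 or 3 (0.46 and 0.52) or without 18 dpp mouse 2, 3 or 4 (0.46, 0.47 and 0.44). The H3K9 methyltransferases Setdb1 and Setdb2 were at 80.6 ± 6.30 and 23.4 ± 4.10 TPM at 8 dpp and at 81.8 ± 2.54 and 23.4 ± 3.02 TPM at 18 dpp, with adjusted p of 0.794 and 0.956. With median-of-ratios scaling Setdb1 was called as a rise of 0.20 (adjusted p = 0.00613). It overlaps Cers2 on the opposite strand.

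Arginine methyltransferases rose in 3 of 6 members and fell in 2, with a median log2 fold change of 0.20, and with median-of-ratios scaling 4 rose and 1 fell. Prmt1, more abundant but not counted because of its older identifier, fell, with a log2 fold change of -0.89. Prmt5, the main symmetric dimethylase and a modifier of Piwi proteins, rose from 57.2 ± 3.15 TPM at 8 dpp to 83.1 ± 3.83 TPM at 18 dpp without overlap, a log2 fold change of 0.53 (SE 0.0625, adjusted p = 2.49e-08). Prmt7, a monomethylase, rose from 52.0 ± 0.959 to 70.2 ± 6.84 TPM without overlap, and Prmt6 rose from 15.3 ± 1.61 to 18.2 ± 1.81 TPM with overlap, a call that ended without 8 dpp mouse 1 (log2 fold change 0.15), 18 dpp mouse 3 (0.20) or 18 dpp mouse 4 (0.19). Prmt3, which methylates a ribosomal protein, fell from 29.2 ± 1.78 to 18.2 ± 2.11 TPM, a log2 fold change of -0.66 (SE 0.0988, adjusted p = 1.36e-06). Prmt9, which methylates a splicing factor, fell by 0.30 with overlap and was not called without 8 dpp mouse 1 (-0.19) or mouse 3 (-0.30) or without 18 dpp mouse 1 (-0.22) or mouse 2 (-0.24).

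Prmt2 rose and then fell. It was at 29.7, 25.9 and 25.1 TPM at 8 dpp, at 58.1, 48.6, 50.4, 61.3 and 55.7 TPM at 12 dpp and at 27.5, 28.2, 32.3, 29.6 and 33.8 TPM at 18 dpp. All mice of 12 dpp were above all mice of 8, 10 and 18 dpp. The step from 10 to 12 dpp had a log2 fold change of 0.70 (SE 0.0879, adjusted p = 1.45e-06), the step from 16 to 18 dpp of -0.54 (SE 0.0879, adjusted p = 1.87e-05), and 18 against 8 dpp was not called (adjusted p = 0.15), whereas with median-of-ratios scaling it was called as a rise of 0.34 (adjusted p = 0.00646).

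Steps between neighbouring ages were uneven. From 8 to 10 dpp limma called 0 members, with 8 at an unadjusted p under 0.05, beside 0.977% of all genes higher and 0.226% lower. From 10 to 12 dpp 7 members rose and 7 fell, where 12.0% of all genes rose and 9.39% fell. From 12 to 14 dpp 0 were called by limma, with 4 at an unadjusted p under 0.05, beside 0.157% and 0.0147% of all genes. Index barcodes of the libraries of 8 to 12 dpp recur among those of 14 to 18 dpp, so the libraries did not form 1 pool. The labels name no pools, and where pools differ between ages, in a step or in 18 against 8 dpp, the pool and the age cannot be told apart.

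Changes came again with the later steps. From 14 to 16 dpp 6 members rose and 19 fell, where 12.7% of all genes rose and 11.3% fell. The total of 25 was 16 without 16 dpp mouse 1 and 16 without 16 dpp mouse 5. With median-of-ratios scaling 8 members rose and 13 fell, and the share of rises among all calls went from 53.0% to 66.3%. From 16 to 18 dpp 16 members rose and 34 fell, where 23.4% of all genes rose and 30.6% fell, but the order turned with median-of-ratios scaling, where 19 rose and 15 fell. There the share of rises among all calls went from 43.4% to 63.0%, and the median log2 fold change of all genes shifted by 0.14. Relative to all genes, the members' median stood at -0.0963 in this step.

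Cell type markers moved in the same steps. From 10 to 12 dpp all 5 leptotene and zygotene markers and 4 of 7 pachytene and diplotene markers rose, with mean sums going from 234 to 432 TPM and from 81.8 to 183 TPM. All 3 pan germ cell markers and 4 of 5 macrophage markers rose there too, from 599.8 to 1017 TPM and from 27.7 to 46.0 TPM, 1 Leydig and 1 Sertoli marker rose, and 2 spermatogonium and 3 Sertoli markers fell. From 14 to 16 dpp all 7 pachytene and diplotene markers rose, from 304 to 1517 TPM, while 4 of 7 spermatogonium markers fell, from 985 to 818 TPM, and 5 of 8 Sertoli markers, from 2067 to 1774 TPM. In that step 3 leptotene and zygotene, 2 pan germ cell and 1 macrophage marker rose as well. The pachytene and diplotene sums of the 5 mice of 16 dpp were 2285, 1300.2, 1125, 1106 and 1771 TPM, so mice 1 and 5, without either of which the count was 16, were the highest. From 16 to 18 dpp the 7 pachytene and diplotene markers rose to 4215 TPM, and all 7 spermatogonium and 7 of 8 Sertoli markers fell, to 567 and 1197 TPM. Falls were also called for 4 of 5 macrophage markers, from 81.6 to 54.0 TPM, for 3 of 5 peritubular markers, from 1092 to 741 TPM, and for 1 endothelial marker, and rises for 2 leptotene and zygotene markers and 1 pan germ cell marker. How much of the members' steps goes with these cell types was not tested.

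Kdm4d led the rises in every step with calls, whereas the other leading genes differed in part between the steps. From 10 to 12 dpp Kdm4d (log2 fold change 0.99, SE 0.259, adjusted p = 0.00642) and Prmt2 rose most, and Setd7 (-0.53, SE 0.110, adjusted p = 8.08e-04) and Kmt2d (-0.48, SE 0.141, adjusted p = 0.0142) fell most. H3K4 methyltransferases made up 4 of the 7 falls in that step. From 14 to 16 dpp the leading rises were Kdm4d (1.40, SE 0.259, adjusted p = 2.15e-04) and Sirt2 (0.49, SE 0.0611, adjusted p = 7.18e-07), and the leading falls Prmt3 (-0.46, SE 0.0856, adjusted p = 2.15e-04) and Setd7 (-0.45, SE 0.110, adjusted p = 0.00338). From 16 to 18 dpp Kdm4d (1.73, SE 0.259, adjusted p = 6.97e-06) and Kat8 (0.75, SE 0.118, adjusted p = 1.17e-05) rose most and Hdac11 (-0.66, SE 0.149, adjusted p = 5.92e-04) and Hdac5 (-0.57, SE 0.0924, adjusted p = 1.81e-05) fell most. These steps share mice with each other. The highest mean was at 8 dpp for 19 members, at 10 dpp for 12, at 12 dpp for 7, at 14 dpp for 12, at 16 dpp for 2 and at 18 dpp for 16.

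Members on the sex chromosomes all had lower means at 18 than at 8 dpp. Of the 4 on the X chromosome, Hdac6, Kdm5c and Kdm6a fell and Hdac8 was not called, while 406 of all 652 X-linked genes, 62.3%, fell and the X-wide median log2 fold change was -0.56. From 16 to 18 dpp the same 3 members fell, with log2 fold changes of -0.56 for Hdac6, -0.45 for Kdm5c and -0.37 for Kdm6a, as did 399 X-linked genes, 61.2%. Kdm6a had 22.4, 18.1 and 18.7 TPM at 8 dpp and 9.88, 11.6, 10.1, 12.8 and 15.2 TPM at 18 dpp, without overlap. Kdm5d was the only member on the Y chromosome, where 9 of 20 genes fell. In adult spermatocytes every sample was below every juvenile mouse for each of these 5 genes, beside 47.7% of 20366 genes of all chromosomes. The share among X-linked or Y-linked genes alone was not computed. Adult means were 14.7 ± 2.18 TPM for Hdac6, 2.14 ± 0.734 for Kdm5c and 0.517 ± 0.111 for Kdm6a (n = 4). Those of Kdm5d and Hdac8 were 0.183 ± 0.0741 and 0.05 ± 0.0577 TPM.

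Ratios within related pairs, described and not tested, changed most for Hdac1 to Hdac2, Kdm1a to Kdm1b and Sirt1 to Sirt6, the 3 of 8 pairs without overlap between 8 and 18 dpp. Kdm1a to Kdm1b, the LSD1 and LSD2 demethylases, went from 6.20 ± 0.238 at 8 dpp to 10.1 ± 0.851 at 18 dpp and 124 ± 22.1 in adult spermatocytes, where Kdm1b was at 0.995 ± 0.162 TPM. Sirt1 to Sirt6 went from 2.18 ± 0.273 to 3.33 ± 0.476 and 20.3 ± 5.60. The gene Kdm1a overlaps Luzp1, and Kdm1b overlaps Tpmt and Dek, each on the opposite strand. The ratios of the other 5 pairs overlapped between 8 and 18 dpp. Kat2a to Kat2b was 2.07 at 8 dpp, 2.69 at 18 dpp and 9.87 in the adult samples, and Kdm6a to Kdm6b was 0.433, 0.375 and 0.154. Setdb1 to Setdb2 was nearly level at 3.49, 3.52 and 3.55 in the same order, but was lower, at 2.85, at 10 dpp. Kmt5b to Kmt5c was 1.01, 0.764 and 0.694, and Kdm5c to Kdm5d 4.22, 5.72 and 13.6, the last with an adult SD of 7.02.

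Sirt3 changed in its transcripts as well as in its level. The share of each transcript in its gene's summed TPM was compared between the 8 mice of 8 and 10 dpp and the 10 mice of 16 and 18 dpp, for 207 transcripts of members. Called were 3, at an adjusted p under 0.05 and a change of at least 20 percentage points, where 2.29% of all 23813 transcripts tested were called. Sirt3-201 held 0% to 13.1% of the gene's TPM in the younger mice, with a median of 4.16%, and 20.9% to 79.8% in the older, with a median of 52.5%. The ranges did not overlap, and the mean rose by 44.8 points (SE 6.96, adjusted p = 2.86e-04). Sirt3-202 went the other way, from a range of 63.1% to 89.5% and a median of 79.9% to a range of 14.5% to 63.3% and a median of 35.5%, which overlap slightly. Its mean fell by 39.7 points (SE 6.38, adjusted p = 3.83e-04).

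In TPM, Sirt3-201 went from 1.43 ± 1.44 at 8 dpp (n = 3) to 5.12 ± 2.85 at 12 dpp, 15.8 ± 7.65 at 16 dpp and 46.3 ± 15.5 at 18 dpp (n = 5 each), while Sirt3-202 went from 25.8 ± 2.98 to 17.4 ± 5.51 between 8 and 18 dpp. The higher total of Sirt3 at 18 dpp therefore lay in Sirt3-201. The start sites of these transcripts lie 440 bases apart, and each begins a RefSeq window of its own, shown because the windows differ in their motifs. That of Sirt3-201 (chr7:140882260-140882559, minus strand) held 1 ETS core and 1 MYB core, and that of Sirt3-202 (chr7:140881820-140882119, minus strand) held 4 GC boxes and 1 CCAAT box. Sirt3 overlaps Ric8a and Psmd13 on the opposite strand.
Sirt3-201: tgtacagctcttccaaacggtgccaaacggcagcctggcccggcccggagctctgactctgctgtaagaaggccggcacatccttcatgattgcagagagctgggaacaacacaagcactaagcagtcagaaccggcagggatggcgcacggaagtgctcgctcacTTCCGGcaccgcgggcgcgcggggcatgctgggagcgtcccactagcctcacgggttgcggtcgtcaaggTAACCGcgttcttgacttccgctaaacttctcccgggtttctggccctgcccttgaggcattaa
Sirt3-202: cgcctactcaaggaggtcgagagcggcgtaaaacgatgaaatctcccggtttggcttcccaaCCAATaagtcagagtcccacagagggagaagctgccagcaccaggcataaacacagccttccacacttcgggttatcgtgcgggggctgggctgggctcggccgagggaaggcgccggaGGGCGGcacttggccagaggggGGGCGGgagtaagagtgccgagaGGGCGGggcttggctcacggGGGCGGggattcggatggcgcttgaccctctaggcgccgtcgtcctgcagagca

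The remaining called transcript was Prmt2-201, whose share was 31.2% to 65.8% with a median of 46.8% in the younger mice and 48.2% to 81.2% with a median of 68.2% in the older. The groups overlapped, and the mean rose by 20.3 points (SE 5.39, limma adjusted p = 0.017), just past the threshold of 20 points. At 12 dpp, the age with the highest Prmt2 level, it stood at 64.2% ± 14.1 (SD, n = 5).

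**Figure D4:**
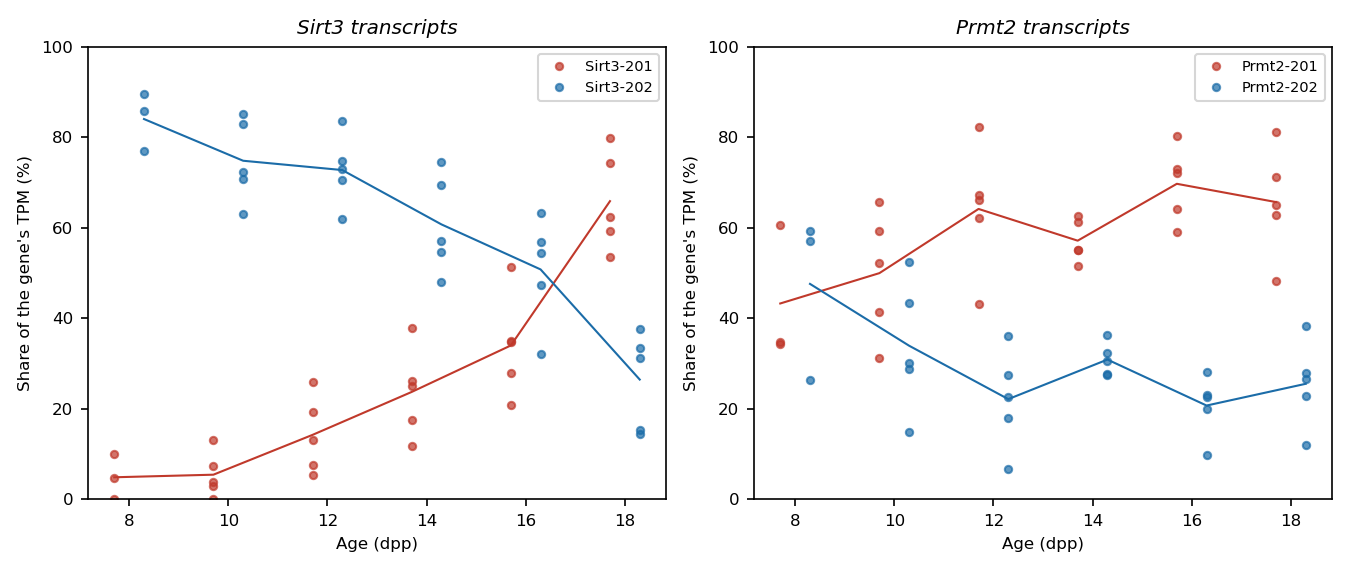
Share of each transcript in its gene's summed TPM, in percent, by age in days post-partum, for the leading transcripts of Sirt3 (left) and Prmt2 (right). Points are mice, lines join the means of each age, and the transcripts are set slightly apart along the axis. Sirt3-201 passes Sirt3-202 between 16 and 18 dpp, where its mean share reaches 65.9%, whereas the points of Prmt2 are more scattered.

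Levels in adult spermatocytes lay beyond the juvenile range for most members. The pachytene and diplotene markers summed to a mean of 11035 TPM in the 4 adult samples, with Ldhc at 6852 TPM. The spermatogonium markers summed to 32.8 TPM, led by Uchl1, the Sertoli markers to 86.9 TPM, led by Inha, and the peritubular markers to 7.76 TPM, led by Tagln. Spermatid markers summed to 1045 TPM, with Tnp1 at 273 TPM, Leydig markers to 234 TPM, led by Insl3, and macrophage markers to 4.30 TPM. The median of the member means was 13.1 TPM. For 10 members every adult sample was above every juvenile mouse, for 44 every adult sample was below, and for 14 the ranges met. Of the 20366 genes in both tables, 21.4% were above and 47.7% below in this way. Of the 18 members that rose from 8 to 18 dpp, 9 had every adult sample above every juvenile mouse. Another 3 had every adult sample below, and for 6 the ranges met. Of the 40 that fell 35 were below and 5 met. The same shares among all genes that rose or fell were not computed. These counts are therefore not shown to be particular to the members. Since the adult table was made separately and comes from another age and preparation, these levels stand side by side and were not tested.

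The highest adult members were Kat7 at 383 ± 16.2 TPM, Hdac1 at 235 ± 6.5 TPM, Kdm5b at 209 ± 6.52 TPM and Kdm3a at 184 ± 5.96 TPM (n = 4), each of which had also risen from 8 to 18 dpp. Kat7 was at 365, 401, 375 and 391 TPM in the 4 samples, all above its highest juvenile value of 247 TPM. Kdm4d was at 159.7, 171, 159 and 175 TPM, Kat8 at 153, 149, 154 and 153 TPM and Sirt2 at 179.7, 169, 167 and 163 TPM, again above every juvenile mouse. Another 5 risers were lower in every adult sample than in every mouse of 18 dpp. Sirt7 was at 8.11 ± 0.920 TPM, Hdac3 at 54.5 ± 1.65 TPM and Prmt6 at 10.9 ± 1.34 TPM, below every juvenile mouse, and Setd3 at 139 ± 4.67 TPM and Prmt5 at 65.2 ± 1.27 TPM were below every mouse of 18 dpp. Setd7 was at 0.360, 0.370, 0.110 and 0.20 TPM and Kmt2a at 0.470, 0.540, 0.330 and 0.680 TPM. With Hdac8, Hdac9 (0.140 ± 0.102 TPM) and Kdm5d, Setd7 was among the 4 lowest members, and 8 members had an adult mean under 1 TPM. By means alone, Setd1b went against the other H3K4 methyltransferases, with 21.6, 24.5, 20.1 and 24.9 TPM, above its mean of 15.3 TPM at 18 dpp. The ranges met, as mouse 1 of 18 dpp was at 21.7 TPM.

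**Figure D5:**
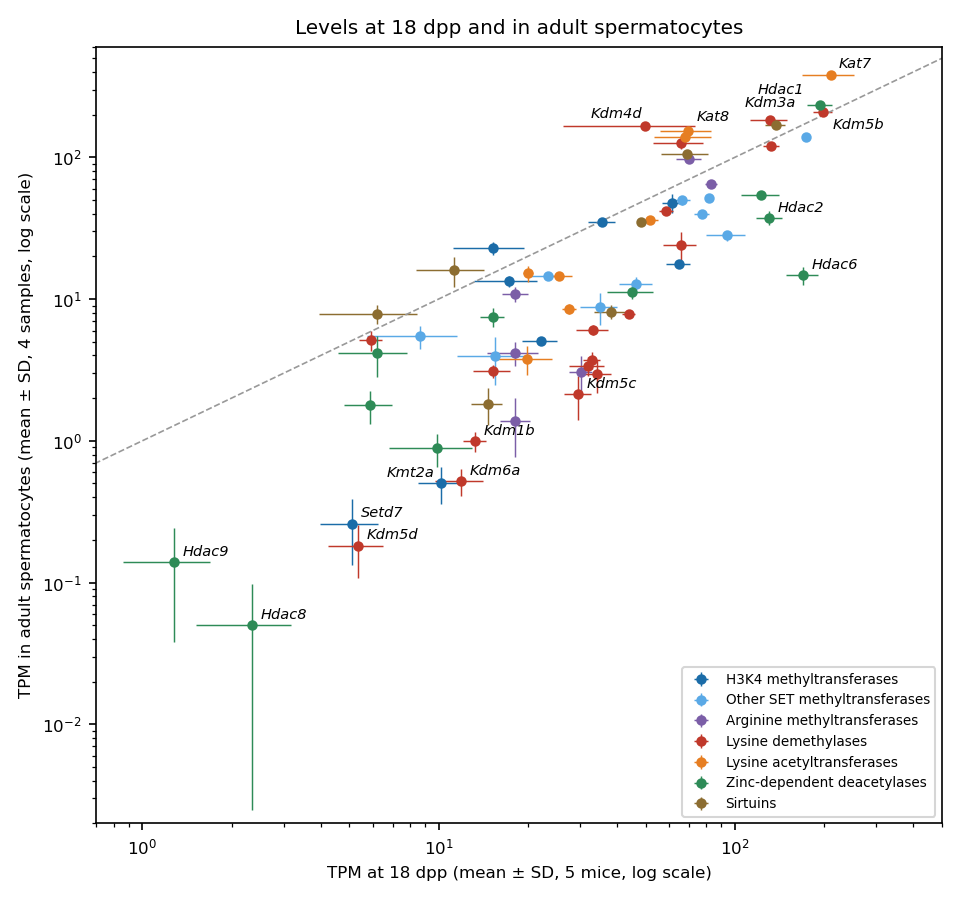
Mean TPM of each member in the 5 mice of 18 dpp against its mean in the 4 adult spermatocyte samples, both on log scales, coloured by role. Bars are SD, with the lower bar of Hdac8, whose SD exceeds its mean, shortened to stay above 0, and the dashed line marks equal levels. Kat7, Kdm4d and Kat8 lie above the line, and Hdac6, Kdm5c, Kdm6a, Kmt2a, Setd7 and Kdm5d lie far below it.

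A list of 77 other histone-modifying genes and partners had 14 rises, 43 falls and 20 not called from 8 to 18 dpp. Of all genes 31.8% rose and 36.3% fell. The median log2 fold change was -0.27 over the list and -0.09 over all genes. These counts were made without median-of-ratios scaling. Morc2b, a MORC-family ATPase, was listed at 0 in all 3 mice of 8 dpp and at 138, 135, 122, 62.9 and 56.4 TPM in the 5 of 18 dpp (adjusted p = 1.19e-16), with an adult mean of 273 ± 5.85 TPM. Smyd1, a SET-domain methyltransferase known from muscle, rose from 1.59 ± 0.232 to 8.17 ± 1.81 TPM, and Rcor3, of the CoREST family that binds Kdm1a, rose from 11.7 ± 1.59 to 37.1 ± 7.73 TPM. Its relative Rcor2 fell from 63.0 ± 5.10 to 25.9 ± 4.61 TPM. The acetyltransferase Crebbp fell from 38.9 ± 2.26 to 18.5 ± 1.75 TPM. The most abundant gene of the list was Sin3b, a scaffold for Hdac1 and Hdac2, with a mean of 1097 TPM over the juvenile mice.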

How the data were processed

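RNA was measured in 28 juvenile mice and 4 adult samples. Per the submitters' processing notes, the authors aligned reads with Bowtie 1.0.0 and estimated expression with RSEM 1.2.8. The juvenile transcript table and the adult table are in TPM as deposited by the authors. The juvenile gene table, as deposited, holds another scale, exp(log2(TPM + 1)) - 1, and was converted back to TPM here as 2 to the power of ln(value + 1), minus 1. After conversion 80 of 20368 genes differed from their summed transcripts by more than 0.2 TPM, none of them a member. Since TPM values carry no counts, depth is not given, and every error is the spread between mice.

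Genes were tested with limma 3.58.1 (R 4.3.3) on log2(TPM + 1), with the 6 ages in a single model and a trended prior variance. The F-test covered all ages, and contrasts covered 18 against 8 dpp and each neighbouring step. P-values were adjusted by Benjamini-Hochberg over 20368 genes, with a threshold of 0.05. Transcript shares were fitted with limma where the gene averaged 3 TPM or more and the transcript 1 TPM or more, adjusted over 23813 transcripts. Tables and figures used Python 3.11.15, numpy 2.4.6, pandas 2.3.3 and matplotlib 3.10.9. The fits were tested on simulated data, and the results of that check are not given here.

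Members named by rule were the 8 largest called rises and 8 largest called falls from 8 to 18 dpp, and every member on the X or Y chromosome. Also named were the 2 largest called changes in each direction of each step, and the 4 highest and 4 lowest adult means. The rule further took genes of called transcripts, 8 fixed pairs and the 2 highest juvenile means. From the list of 77 other genes it took the 3 largest rises and falls. A withheld item among these is not described. This gave 38 members, and other members given with values were named after their values were seen, to complete their families. The members and lists were chosen with earlier results of these data known.

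Alternatives were a pseudocount of 0.1, other filters on low values, median-of-ratios scaling, a replicate block, mice 1 to 3 alone, a constant prior variance, the compared ages alone, another usage threshold and leaving out each mouse in turn. Leaving out 18 dpp mice 4 and 5 together was chosen after seeing the data. The gene table's substage column, the authors' own assignment of genes to meiotic substages, and the cell counts of the study were not used here. The mice of 14 dpp titled 6 and 7 are called mice 4 and 5.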

Additional observations from a re-analysis of the deposited data

Results flagged for a closer look

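In 228 groups of mice or samples, for the 38 members named by rule, the gap between the most extreme value and its nearest neighbour was compared with the range of the group. By chance about 1 in 20 groups would be picked, and 11 were. All values are TPM.

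At 16 dpp mouse 1 was picked 4 times. It was highest for Sirt2 at 110.36 against 97.79 to 101.42 in the others, for Kdm5b at 181.96 against 148.77 to 156.91 and for Setdb2 at 29.7 against 22.44 to 23.73. It was lowest for Kat2a at 51.05 against 56.27 to 57.85.

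The other picks were spread over ages. Sirt3 was highest in 10 dpp mouse 2 at 41.07 against 30.77 to 33.74. Hdac11 was highest in 12 dpp mouse 1 at 15.06 against 9.59 to 11.12. Kmt5b was lowest in 14 dpp mouse 1 at 44.26 against 52.12 to 53.58. Among the mice of 18 dpp, Hdac8 was highest in mouse 5 at 3.77 against 1.66 to 2.24, and Kmt2d in mouse 1 at 24.63 against 14.97 to 16.22. In the adult samples Kmt2d was highest in sample 1 at 15.14 against 12.66 to 13.05, and Kmt5b in sample 3 at 12.23 against 7.62 to 7.75. The causes were not tested.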

How the results depend on the processing

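Leaving out each mouse in turn gave 59 to 63 members differing among ages, 16 to 18 rises and 35 to 41 falls from 8 to 18 dpp. The steps gave 0 from 8 to 10 dpp, 13 to 16 from 10 to 12 dpp, 0 from 12 to 14 dpp, 16 to 28 from 14 to 16 dpp and 42 to 51 from 16 to 18 dpp. Transcripts of changed usage numbered 2 to 4, and the adult median was 12.7 to 13.6 TPM. The other settings gave 59 to 61 members differing, 14 to 23 rises and 33 to 41 falls, 14 to 17, 16 to 26 and 34 to 52 members in the steps with calls, 3 to 11 transcripts and an adult median of 13.0 to 13.1 TPM. With the replicate number as a block, 60 members differed, 18 rose and 41 fell, and 0, 14, 0, 25 and 50 were called in the steps and 4 transcripts in usage.

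The count of 25 from 14 to 16 dpp moved to 16 with no filter on low values, to 16 without 16 dpp mouse 1 and to 16 without 16 dpp mouse 5, and the largest, 28, came without 12 dpp mouse 1. The count of 3 transcripts moved to 11 with a change of at least 10 points, where the threshold itself was lowered. For the others the cause was not tested.

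Of 1405 log2 fold changes for 38 members, 1388 kept their direction and their call, although their sizes moved. Another 7 gained a call and 10 changed sign, all of members not called in the main fit. Many of these 38 were named for the size of their called changes, so their calls were the least likely to end. The calls that ended in other fits, as for Setd4, Setd6, Sirt4 and Kat6b, belonged to members outside the 38. Setdb2 was at -0.0123 with the replicate block, at -0.0479 in mice 1 to 3 alone and at -0.0479 without 18 dpp mice 4 and 5. Leaving out a single mouse put Setdb2 between -0.1356 (8 dpp mouse 2) and 0.1056 (8 dpp mouse 1), with -0.0204 and -0.0513 without 18 dpp mouse 1 and mouse 5. Kdm1a ranged from -0.0144 to 0.063 and Setdb1 from -0.0417 to 0.066, both lowest without 8 dpp mouse 2. Sirt1 ranged from -0.0595 to 0.0039 and was at 0.1421 with median-of-ratios scaling. Hdac8 was at -0.51 with the replicate block (limma adjusted p = 0.0459), at -0.56 in mice 1 to 3 alone or without 18 dpp mice 4 and 5, and at -0.54 without 18 dpp mouse 5. Under median-of-ratios scaling Prmt2 (0.34), Kdm1a (0.20) and Setdb1 (0.20) were called as rises. The cause was not tested.

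The block uses mouse numbers that mark no known pairing. Residuals of mice with the same number had a median correlation of 0.014 (65 pairs), and of mice with other numbers 0.001 (260 pairs). With TPM alone, counting error at low levels, as for Hdac8, Hdac9 and Sirt5, cannot be separated from spread between mice. The 3 mice of 8 dpp limit every comparison with that age.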

Other observations

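Prmt1, the main asymmetric arginine dimethylase, is listed in the tables under an older identifier, ENSMUSG00000052429, and 2 of its 8 listed transcripts are in the annotation under Prmt1. It was therefore kept out of the counts. In the juvenile mice its level was higher than that of any counted arginine methyltransferase, at 375, 388 and 376 TPM in the 3 mice of 8 dpp and at 177, 184, 180.4, 249 and 242 TPM in the 5 of 18 dpp. All mice of 18 dpp were below all mice of 8 dpp, and mice 1 to 3 of 18 dpp were the lowest. The log2 fold change was -0.89 (SE 0.0997, limma adjusted p = 1.02e-08). Means for 10, 12, 14 and 16 dpp were 371 ± 20.8, 318 ± 26.6, 311 ± 18.8 and 278 ± 28.4 TPM (n = 5 each), and the adult mean was 28 ± 3.17 TPM (n = 4).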
